A study of Mus musculus with 16 samples.

Results

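Expression of 31 genes of cholesterol synthesis, uptake and export was examined in the hippocampus of mice with and without the astrocyte type 2 deiodinase, after status epilepticus (SE, a prolonged seizure) or saline. The genes were a named list of enzymes of the pathway, regulators of its transcription, and proteins that carry, export or oxidise cholesterol. A gene was taken as measured where a probe set of the array was assigned to its symbol and to no other, and where a gene had several such probe sets, the brightest on average stood for it. By this rule 28 of the 31 genes were measured, among the 22180 genes of the whole table, and Acat2, Idi1 and Nr1h2 were not.

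The 16 Affymetrix arrays held 4 groups of 4 C57BL/6 mice aged 8 to 10 weeks. Astro-D2KO mice carried a floxed D2 allele (Dio2, the deiodinase that makes the active thyroid hormone T3 from T4) together with a glial cre, and control mice were wild type at that locus and carried the same cre. Lithium chloride (10 mEq/kg) was injected into every animal, controls included. After 18 h the mice of the Astro-D2KO SE and control SE groups received pilocarpine at 65 mg/kg, and those of the Astro-D2KO saline and control saline groups received saline. The drug and the seizures it induces therefore cannot be told apart. The sources used here do not give the promoter behind the cre, the time from pilocarpine to dissection, the sex or litter of the mice, or a batch of hybridisation. Values are log2 units of the robust multi-array average (RMA), a background-corrected and quantile-normalised probe set summary, and the level of one gene on this scale cannot be set against that of another. Changes are differences of group means with the standard error of a limma fit over all 16 arrays. A gene passed where the p-value, adjusted by Benjamini-Hochberg over the 22180 genes, was under 0.05.

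Cholesterol hardly crosses the blood-brain barrier, so the brain makes its own from acetyl-CoA, first along the mevalonate part of the pathway to farnesyl diphosphate and then along the sterol part from squalene through lanosterol. Transcription of the enzymes is driven by sterol regulatory element binding proteins (SREBPs), which the escort protein Scap carries out of the endoplasmic reticulum when sterols are low and which the Insig proteins hold there when sterols are high. Excess cholesterol is exported by ABC transporters to apolipoprotein E, made largely by astrocytes, or is oxidised to oxysterols, which activate the liver X receptors.

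Promoters of 5 members are shown because most synthesis genes are known to share boxes for SREBPs and for NF-Y, a factor that works with them. Of the 31 listed genes, 26 were found by symbol in RefSeq's promoter table (GRCm38.p6), and the 250 bases before each start were searched on both strands. The sequences run 5′ to 3′ up to the start of transcription, and capitals mark matches to CCAAT (the NF-Y box), TCACNCCAC (a sterol regulatory element) and TGACGTCA (a cyclic AMP response element, the site of CREB), or to their reverse complements. No match overlapped another in these 5 windows.
Hmgcs1, chr13:119690101-119690350, plus strand: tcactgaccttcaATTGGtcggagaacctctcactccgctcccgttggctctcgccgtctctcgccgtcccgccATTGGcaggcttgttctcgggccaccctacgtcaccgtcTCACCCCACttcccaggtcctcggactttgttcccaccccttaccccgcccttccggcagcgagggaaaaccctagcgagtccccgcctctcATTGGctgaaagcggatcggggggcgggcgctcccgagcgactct
Cyp51, chr5:4104698-4104947, minus strand: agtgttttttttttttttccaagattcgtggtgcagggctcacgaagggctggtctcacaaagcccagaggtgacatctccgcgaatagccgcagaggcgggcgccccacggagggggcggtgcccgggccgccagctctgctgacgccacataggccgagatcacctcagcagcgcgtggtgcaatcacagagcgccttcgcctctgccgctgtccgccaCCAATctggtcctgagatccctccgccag
Msmo1, chr8:64733579-64733828, minus strand: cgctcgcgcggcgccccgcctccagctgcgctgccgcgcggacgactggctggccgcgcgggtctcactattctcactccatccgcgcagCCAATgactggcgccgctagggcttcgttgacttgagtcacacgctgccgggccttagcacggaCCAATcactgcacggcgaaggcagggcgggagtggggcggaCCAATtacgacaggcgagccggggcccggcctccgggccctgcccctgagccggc
Ch25h, chr19:34475149-34475398, minus strand: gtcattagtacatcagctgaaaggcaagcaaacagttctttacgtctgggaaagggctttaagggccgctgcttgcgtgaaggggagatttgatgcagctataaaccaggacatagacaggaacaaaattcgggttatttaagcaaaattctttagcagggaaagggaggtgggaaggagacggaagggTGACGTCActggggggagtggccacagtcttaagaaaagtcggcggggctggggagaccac
Mvk, chr5:114444019-114444268, plus strand: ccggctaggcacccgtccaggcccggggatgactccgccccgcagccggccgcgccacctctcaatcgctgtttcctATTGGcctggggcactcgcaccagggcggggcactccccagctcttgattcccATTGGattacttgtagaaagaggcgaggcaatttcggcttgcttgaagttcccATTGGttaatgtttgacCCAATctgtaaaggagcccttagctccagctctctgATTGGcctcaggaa

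The NF-Y box was found before 20 of the 26 genes (76.9%), against 37.5% of the 27025 genes of the table. A sterol regulatory element of these letters was found before Hmgcs1 alone of the 26, against 1.22% of all genes, with its first base 137 bases before the start. The cyclic AMP response element was found before Ch25h alone of the 26, 61 bases before the start, against 1.77% of all genes. The GC box GGGCGG, bound by Sp1, was found before 22 of the 26, against 35.4% of all genes. Of the genes grouped by their response to SE, described next, the NF-Y box was found before 8 of the 10 members with a window that rose in either genotype and before 11 of the 13 measured members with a window that did not. Mvk, with 5 matches, was among those that did not pass. These are matches of letters in 1 window per start, and sites elsewhere were not searched. A gene with several starts counted where any of its windows matched, and 20 of the 26 members had 1 start. The shares over all genes include every symbol of the promoter table. They were not matched to the members for expression, base content or number of starts.

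Dio2, the targeted gene, was used to check the labels. It stood at 6.75, 6.52, 7.09 and 6.77 in Astro-D2KO saline arrays, against 7.87, 8.25, 8.17 and 8.28 in control saline arrays, a difference of -1.36 (two-sided exact permutation p = 0.0286, the lowest possible p with 4 and 4 arrays). After SE it stood at 8.91, 7.03, 7.17 and 7.12 in Astro-D2KO arrays, against 9.51, 9.11, 9.24 and 7.99 in control arrays (-1.41, exact permutation p = 0.0571). With the mean of all Dio2 probe sets, an alternative chosen after seeing the data, the differences were -0.72 with saline and -0.77 after SE. In the probe set used, the array labelled Astro-D2KO SE replicate 1 lay above the lowest control SE array, the array labelled control SE replicate 4. Each of these 2 arrays stood apart from its group, toward the other genotype. The check thus leaves their labels in doubt. The labels were kept as given, and whether either array is mislabelled was not tested. The sources used here do not say whether the deletion covers the target of this probe set. Without these 2 arrays the numbers of cholesterol genes that rose and fell after SE were 11 and 5 in Astro-D2KO mice and 11 and 3 in control mice, against 11 and 4, and 11 and 3, with all arrays. Between genotypes 0 cholesterol genes passed without these 2 arrays, with saline or after SE. Pearson correlations between arrays over all genes lay between 0.972 and 0.994, and no array was identical to another.

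After SE, cholesterol genes rose in both genotypes, led by Ch25h, which makes 25-hydroxycholesterol, and by the synthesis enzymes Pmvk, Msmo1 and Cyp51. In Astro-D2KO mice 11 of the 28 measured genes rose (39.3%), where the background over all genes was 7.49%, and 4 fell (14.3%), where it was 12.6%. In control mice 11 rose (39.3%, background 8.42%) and 3 fell (10.7%, background 13.7%). The share of falls was thus near the background of all genes in both genotypes. With genes below the median level left out, 1484 of 11090 rose and 2888 fell in Astro-D2KO mice, and 1638 rose and 3170 fell in control mice. Of the 11 rises in each genotype, 9 were shared, which is 81.8% of each list, and the 3 falls of control mice (Srebf1, Scap and Abcg1) were among the 4 of Astro-D2KO mice. The median change of the 28 genes was 0.15 in Astro-D2KO mice and 0.08 in control mice, where all genes had medians of -0.01 and -0.02. Of the 28 genes, 12 passed in both genotypes, 5 in 1 and 11 in neither. Before adjustment, 16 had a p under 0.05 in Astro-D2KO mice (background 30.8%) and 17 in control mice (background 33%). SE arrays lay wholly above saline arrays for 13 members in Astro-D2KO mice (background 9.54%) and wholly below for 3 (15.1%), and in control mice for 11 (8.46%) and 3 (13.7%).

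**Figure D1:**
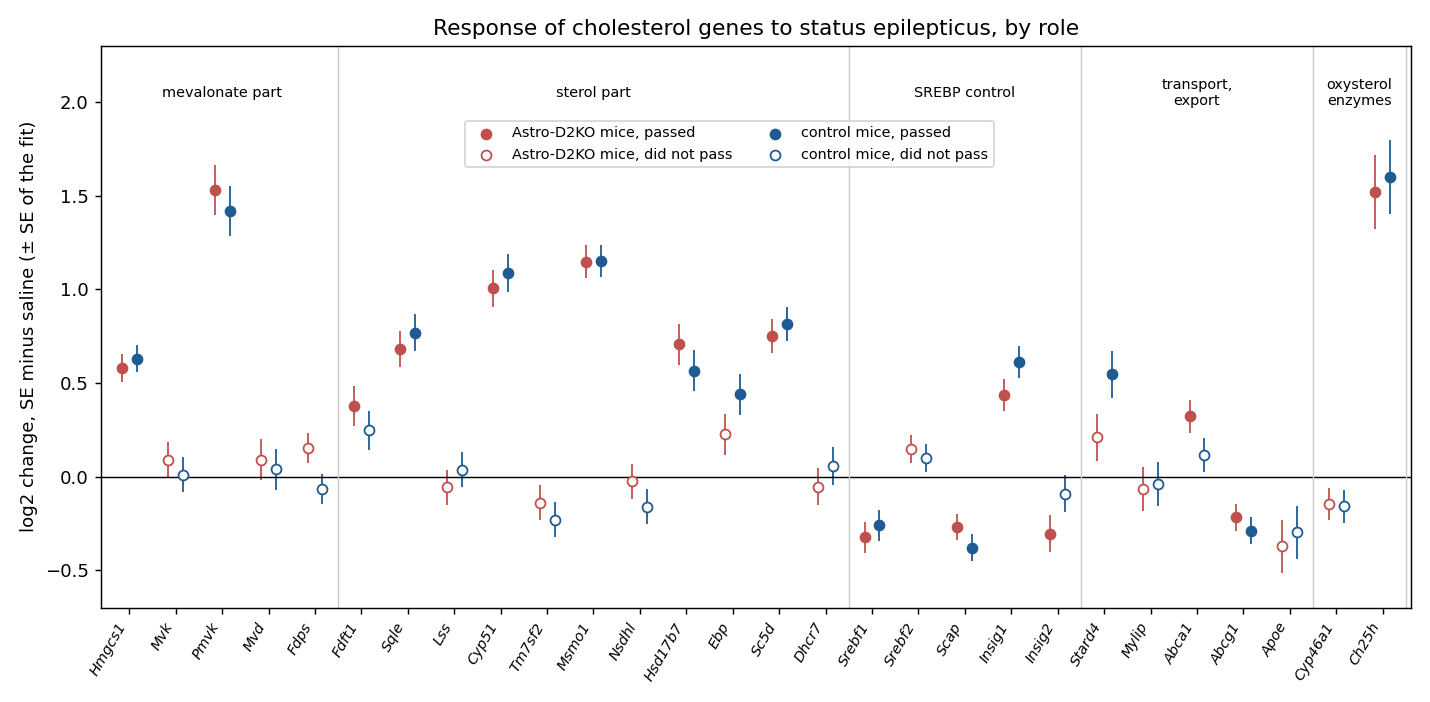
Log2 change after SE (vertical axis, ± standard error of the fit) of the 28 measured genes, grouped by role, in Astro-D2KO mice (red, left of each pair) and control mice (blue). Filled points passed at an adjusted p under 0.05; the filled points above 1 are those of Pmvk, Cyp51, Msmo1 and Ch25h in both genotypes.

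The mevalonate part held the largest rise of a synthesis enzyme and 3 genes that did not pass. Pmvk, phosphomevalonate kinase, stood at 9.23, 8.94, 9.14 and 8.59 in Astro-D2KO SE arrays, against 7.36, 7.35, 7.45 and 7.61 in Astro-D2KO saline arrays. In control mice its level was 9.21, 8.79, 8.88 and 8.61 in control SE arrays, against 7.42, 7.56, 7.51 and 7.33 in control saline arrays. All SE arrays lay far above all saline arrays in both genotypes. Pmvk rose by 1.53 ± 0.13 (2.89-fold, adjusted p = 4.77e-07) in Astro-D2KO mice and by 1.42 ± 0.13 (2.67-fold, adjusted p = 1.02e-06) in control mice. Hmgcs1, which makes HMG-CoA at the head of the pathway, stood at 10.73, 10.70, 10.61 and 10.63 in Astro-D2KO SE arrays, against 10.06, 10.08, 10.00 and 10.20 in Astro-D2KO saline arrays. Control mice had 10.68, 10.83, 10.61 and 10.73 in control SE arrays, against 10.04, 10.15, 10.00 and 10.14 in control saline arrays. The spread within each group was small, and SE arrays did not overlap saline arrays in either genotype. The rise of Hmgcs1 was 0.58 ± 0.073 (1.49-fold, adjusted p = 2.48e-05) in Astro-D2KO mice and 0.63 ± 0.073 (1.55-fold, adjusted p = 9.43e-06) in control mice.

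The other 3 measured enzymes of the mevalonate part passed in neither genotype. Fdps, farnesyl diphosphate synthase, had the smallest mean change of this part over both genotypes, a mean in which changes of opposite sign cancel. It stood at 7.00, 7.22, 7.21 and 7.02 in Astro-D2KO SE arrays, against 6.88, 6.98, 7.08 and 6.91 in Astro-D2KO saline arrays. Its levels were 6.95, 7.06, 6.88 and 7.13 in control SE arrays, against 7.01, 7.11, 7.13 and 7.04 in control saline arrays. The groups overlapped in both genotypes, and the changes of 0.15 ± 0.081 in Astro-D2KO mice and -0.07 ± 0.081 in control mice did not pass (adjusted p = 0.209 and 0.624). Mvk, mevalonate kinase, had estimates of 0.09 ± 0.095 in Astro-D2KO mice and 0.01 ± 0.095 in control mice. Mvd, the decarboxylase that follows Pmvk, had estimates of 0.09 ± 0.11 in Astro-D2KO mice and 0.04 ± 0.11 in control mice. In Astro-D2KO mice the estimate of Fdps was thus larger than those of Mvk and Mvd. The 95% interval of Pmvk in Astro-D2KO mice was 1.25 to 1.81, where those of the enzymes just before and after it, Mvk and Mvd, were -0.11 to 0.29 and -0.14 to 0.32.

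In the sterol part 6 of 11 enzymes rose in each genotype (54.5%) and 0 fell. The background was 7.49% higher and 12.6% lower in Astro-D2KO mice, and 8.42% and 13.7% in control mice. Msmo1, a methylsterol oxidase, stood at 9.25, 9.18, 9.27 and 9.09 in Astro-D2KO SE arrays, against 7.90, 7.98, 8.05 and 8.26 in Astro-D2KO saline arrays. In control mice Msmo1 had 9.24, 9.35, 9.16 and 9.39 in control SE arrays, against 8.06, 8.21, 8.05 and 8.22 in control saline arrays. SE and saline arrays were separated by a wide gap in both genotypes. The rises were 1.15 ± 0.087 (2.22-fold, adjusted p = 1.22e-07) in Astro-D2KO mice and 1.15 ± 0.087 (2.22-fold, adjusted p = 9.57e-08) in control mice. Cyp51, the demethylase that acts on lanosterol, stood at 8.93, 8.84, 8.97 and 8.90 in Astro-D2KO SE arrays, against 7.96, 7.85, 7.79 and 8.01 in Astro-D2KO saline arrays. Its control values were 8.91, 9.0, 9.03 and 8.86 in control SE arrays, against 8.05, 8.08, 7.62 and 7.69 in control saline arrays. The SE arrays were alike in all mice, and the wider spread was among the control saline arrays. Cyp51 rose by 1.00 ± 0.099 (2.01-fold) and by 1.09 ± 0.099 (2.13-fold) in Astro-D2KO and control mice (adjusted p = 1.90e-06 and 7.23e-07).

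Sc5d, the sterol desaturase late in the pathway, stood at 10.04, 9.96, 10.03 and 9.68 in Astro-D2KO SE arrays, against 9.19, 9.17, 9.11 and 9.23 in Astro-D2KO saline arrays. Control mice had 10.12, 9.83, 10.07 and 9.92 in control SE arrays, against 9.20, 9.27, 9.03 and 9.17 in control saline arrays. In Astro-D2KO mice replicate 4 was the lowest SE array and still lay above every saline array. The rises of Sc5d were 0.75 ± 0.091 (1.69-fold) in Astro-D2KO and 0.82 ± 0.091 (1.76-fold) in control animals (adjusted p = 1.72e-05 and 6.90e-06). Sqle, squalene epoxidase, a rate-limiting enzyme of the sterol part, stood at 8.40, 8.34, 8.28 and 8.11 in Astro-D2KO SE arrays, against 7.56, 7.66, 7.49 and 7.70 in Astro-D2KO saline arrays. For control mice the values of Sqle were 8.27, 8.46, 8.29 and 8.57 in control SE arrays, against 7.49, 7.85, 7.51 and 7.67 in control saline arrays. SE arrays did not overlap saline arrays in either genotype. The changes of Sqle were 0.68 ± 0.098 (1.60-fold, adjusted p = 9.84e-05) in Astro-D2KO mice and 0.77 ± 0.098 (1.7-fold, adjusted p = 2.68e-05) in control mice. Hsd17b7, a ketosteroid reductase of the pathway, stood at 7.95, 7.89, 7.97 and 7.79 in Astro-D2KO SE arrays, against 7.30, 7.25, 6.91 and 7.31 in Astro-D2KO saline arrays. Among control mice it was at 7.89, 7.81, 7.52 and 8.02 in control SE arrays, against 7.21, 7.32, 7.10 and 7.35 in control saline arrays. The control SE arrays of Hsd17b7 were spread the most, with replicate 3 the lowest, and none reached down to the saline arrays. Its rise was 0.71 ± 0.11 (1.63-fold, adjusted p = 0.000202) in Astro-D2KO mice and 0.56 ± 0.11 (1.48-fold, adjusted p = 0.00118) in control mice.

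A pair of sterol enzymes passed in 1 genotype each. Fdft1, squalene synthase, rose by 0.38 ± 0.11 (adjusted p = 0.0176) in Astro-D2KO mice, and its change in control mice was 0.25 ± 0.11 (adjusted p = 0.112). The call of Fdft1 in Astro-D2KO mice was lost without Astro-D2KO saline replicate 1 (0.33), Astro-D2KO saline replicate 2 (0.34) or Astro-D2KO SE replicate 3 (0.33). Ebp, a sterol isomerase, rose by 0.44 ± 0.11 (adjusted p = 0.00714) in control mice, and its change in Astro-D2KO mice was 0.22 ± 0.11 (adjusted p = 0.173). The test of the difference between the genotypes passed for neither gene: the response to SE in Astro-D2KO mice less the response in control mice was 0.13 (95% interval -0.19 to 0.45) for Fdft1 and -0.22 (-0.54 to 0.11) for Ebp, each with an adjusted p of 0.998.

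The other 4 sterol enzymes passed in neither genotype. Dhcr7, the reductase that makes cholesterol in the last step of one branch, had the smallest mean change of the sterol part over both genotypes. Here too the changes had opposite signs and cancelled. Dhcr7 stood at 8.33, 8.54, 8.79 and 8.46 in Astro-D2KO SE arrays, against 8.66, 8.55, 8.47 and 8.66 in Astro-D2KO saline arrays. Its control levels were 8.50, 8.39, 8.36 and 8.54 in control SE arrays, against 8.32, 8.62, 8.26 and 8.37 in control saline arrays. The groups overlapped, and the changes were -0.05 ± 0.10 and 0.06 ± 0.10 in Astro-D2KO and control mice. Lss, lanosterol synthase, had estimates of -0.06 ± 0.093 and 0.04 ± 0.093, and Nsdhl, a sterol dehydrogenase, by -0.03 ± 0.095 and -0.16 ± 0.095. Tm7sf2, a sterol reductase, had values of -0.14 ± 0.094 in Astro-D2KO mice and -0.23 ± 0.094 in control mice (adjusted p = 0.346 and 0.0939). Over the 16 measured synthesis enzymes of both parts, 8 rose (50%) and 0 fell in each genotype. The background of rises was 7.49% in Astro-D2KO mice and 8.42% in control mice, and that of falls 12.6% and 13.7%. The median change of the 16 was 0.30 in Astro-D2KO mice and 0.34 in control mice.

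**Figure D2:**
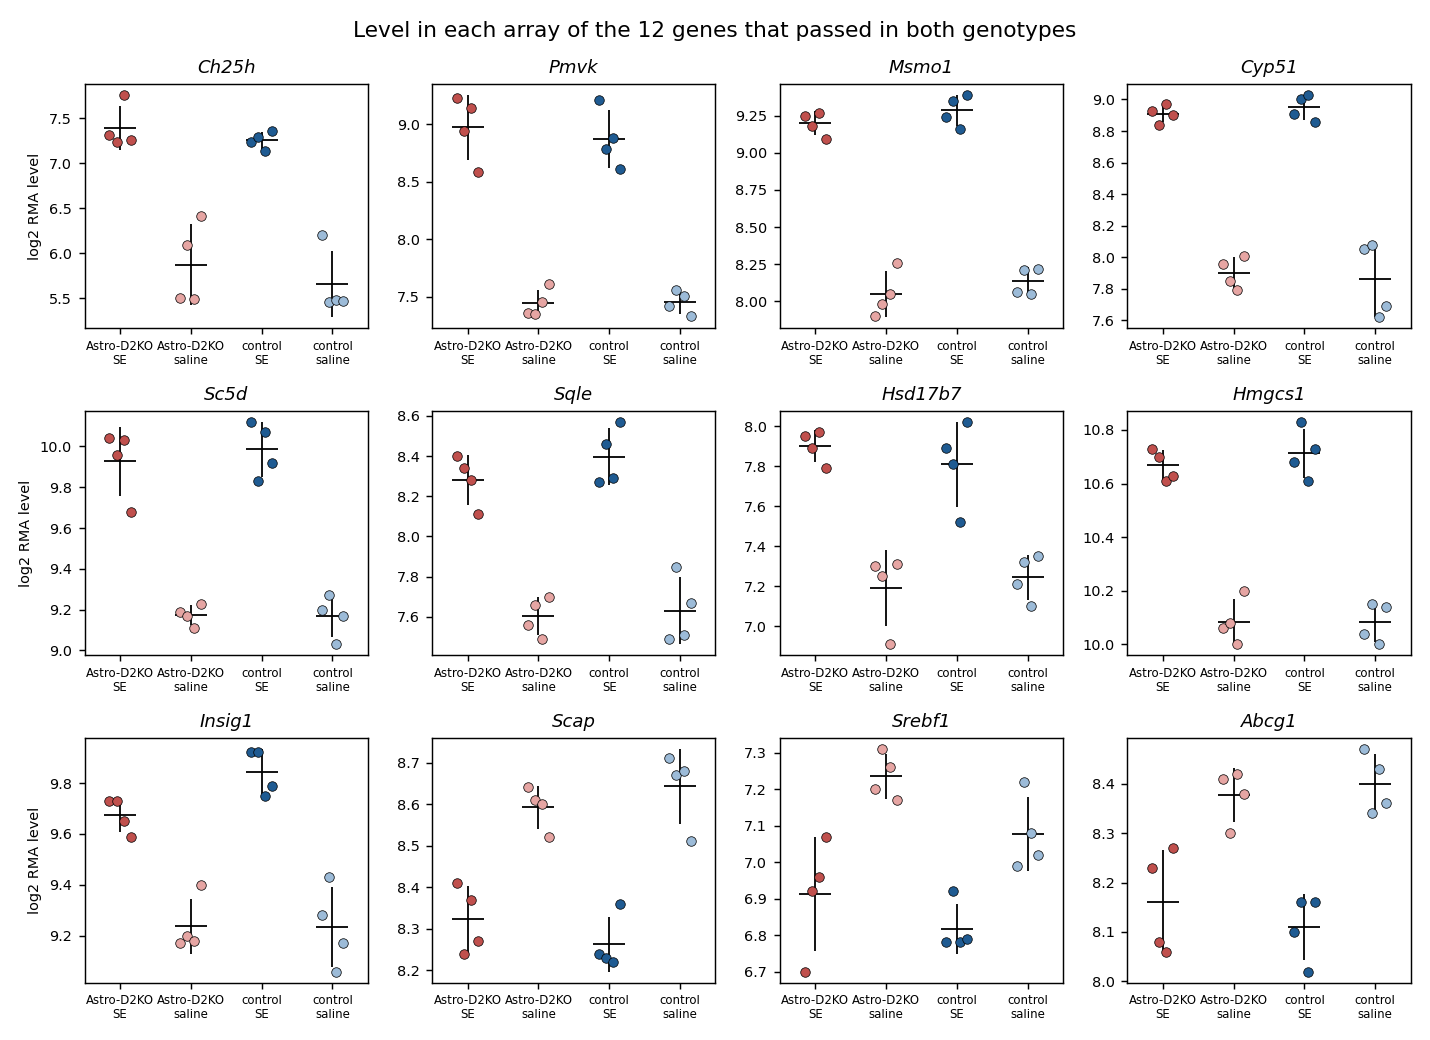
Log2 RMA level (vertical axis, a separate scale for each gene that does not start at 0) in each of the 4 arrays per group (left to right Astro-D2KO SE, Astro-D2KO saline, control SE, control saline), for the 12 genes that passed in both genotypes. Horizontal bars are means and vertical bars standard deviations (n = 4); in Ch25h the SE arrays lie between 7.14 and 7.76 and the saline arrays between 5.46 and 6.41.

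Among the regulators, the feedback protein Insig1 rose while the SREBP genes and Scap did not. Insig1 is itself a target of SREBPs and holds them back. It stood at 9.73, 9.73, 9.65 and 9.59 in Astro-D2KO SE arrays, against 9.17, 9.20, 9.18 and 9.40 in Astro-D2KO saline arrays. In control mice the levels of Insig1 were 9.92, 9.92, 9.75 and 9.79 in control SE arrays, against 9.28, 9.43, 9.06 and 9.17 in control saline arrays. Astro-D2KO saline replicate 4 was the highest saline array of its genotype, and all saline arrays lay below all SE arrays. Insig1 rose by 0.44 ± 0.087 (1.35-fold, adjusted p = 0.00163) in Astro-D2KO mice and by 0.61 ± 0.087 (1.53-fold, adjusted p = 7.75e-05) in control mice. Insig2, its paralog, fell by 0.31 ± 0.099 on the log2 scale in Astro-D2KO mice (adjusted p = 0.037), with overlapping arrays, and its change in control mice was -0.09 ± 0.099 (adjusted p = 0.581). That call was lost without Astro-D2KO saline replicate 1 (-0.31), 3 (-0.23) or 4 (-0.32), without Astro-D2KO SE replicate 2 (-0.29), 3 (-0.31) or 4 (-0.27), with each array centred on its median (-0.28), with quantile normalisation repeated (-0.24) and with only the 2 groups compared in the fit. The difference between the SE responses of Insig2 was -0.21 (95% interval -0.51 to 0.08) and did not pass.

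Srebf1 encodes SREBP1, whose main isoforms in liver favour fatty acid genes. It stood at 6.70, 6.92, 6.96 and 7.07 in Astro-D2KO SE arrays, against 7.20, 7.31, 7.26 and 7.17 in Astro-D2KO saline arrays. The control values of Srebf1 were 6.78, 6.92, 6.78 and 6.79 in control SE arrays, against 6.99, 7.22, 7.08 and 7.02 in control saline arrays. All SE arrays lay below the saline arrays of their genotype, by a narrow margin. Srebf1 fell by 0.32 on the log2 scale in Astro-D2KO mice (1.25-fold lower, standard error 0.084, adjusted p = 0.0104) and by 0.26 in control mice (1.20-fold lower, standard error 0.084, adjusted p = 0.033). The call in control mice was lost without control saline replicate 2 (-0.21) or 3 (-0.26), without the arrays labelled control SE replicate 1 (-0.25), 3 (-0.25) or 4 (-0.25), with each array centred on its median (-0.23), with quantile normalisation repeated (-0.19) and with only the 2 groups compared in the fit. Srebf2, the main driver of cholesterol enzymes, had the smallest mean change of the regulators. It stood at 9.62, 9.48, 9.54 and 9.46 in Astro-D2KO SE arrays, against 9.45, 9.44, 9.32 and 9.30 in Astro-D2KO saline arrays. In control mice Srebf2 was at 9.37, 9.51, 9.45 and 9.51 in control SE arrays, against 9.21, 9.45, 9.38 and 9.42 in control saline arrays. The Astro-D2KO arrays did not overlap and the control arrays did, and neither change passed (0.15 ± 0.074, adjusted p = 0.188, in Astro-D2KO mice and 0.10 ± 0.074, adjusted p = 0.405, in control mice).

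Scap, the escort of the SREBPs, stood at 8.41, 8.24, 8.37 and 8.27 in Astro-D2KO SE arrays, against 8.64, 8.61, 8.60 and 8.52 in Astro-D2KO saline arrays. For control mice Scap was at 8.24, 8.23, 8.22 and 8.36 in control SE arrays, against 8.71, 8.67, 8.68 and 8.51 in control saline arrays. SE arrays lay below saline arrays in both genotypes. Scap fell by 0.27 on the log2 scale in Astro-D2KO mice (1.20-fold lower, adjusted p = 0.0118) and by 0.38 in control mice (1.30-fold lower, adjusted p = 0.000874). A second, dimmer Scap probe set, with a mean of 5.48 against 8.45, gave differences of 0.03 and 0.02 in the same order. With the mean of both probe sets the changes were -0.12 and -0.18 and neither passed (adjusted p = 0.291 and 0.0927), so the fall of Scap rests on 1 probe set.

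Of the 5 measured transport and export genes, 1 rose and 1 fell in each genotype (20% each way). The background was 7.49% higher and 12.6% lower in Astro-D2KO mice, and 8.42% and 13.7% in control mice. Counts this small cannot be told from those shares. Abcg1, an exporter of cholesterol to lipoproteins, stood at 8.23, 8.08, 8.06 and 8.27 in Astro-D2KO SE arrays, against 8.41, 8.30, 8.42 and 8.38 in Astro-D2KO saline arrays. Control arrays of Abcg1 had 8.10, 8.16, 8.02 and 8.16 in control SE arrays, against 8.47, 8.34, 8.43 and 8.36 in control saline arrays. The SE arrays lay below the saline arrays in both genotypes, in Astro-D2KO mice by a narrow margin. Abcg1 fell by 0.22 on the log2 scale in Astro-D2KO mice (1.16-fold lower, adjusted p = 0.039) and by 0.29 in control mice (1.22-fold lower, adjusted p = 0.00686). The call in Astro-D2KO mice was lost without Astro-D2KO saline replicate 1 (-0.21), 3 (-0.20) or 4 (-0.22), without Astro-D2KO SE replicate 2 (-0.19) or 3 (-0.18), with each array centred on its median (-0.19), with quantile normalisation repeated (-0.19) and with only the 2 groups compared in the fit. With it and Insig2 lost, as on centring, 2 members fell in Astro-D2KO mice in place of 4.

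Abca1, the exporter that loads apolipoproteins with cholesterol, rose by 0.32 ± 0.089 (adjusted p = 0.0153) in Astro-D2KO mice, a call lost without Astro-D2KO SE replicate 4 (0.27), and its change in control mice was 0.12 ± 0.089 (adjusted p = 0.407). Stard4, which carries sterols between membranes and is a known SREBP target, rose by 0.55 ± 0.12 (adjusted p = 0.00402) in control mice, and its change in Astro-D2KO mice was 0.21 ± 0.12 (adjusted p = 0.277). The difference between the SE responses was -0.34 for Stard4 (95% interval -0.71 to 0.04), the largest of the 28 genes, and 0.21 for Abca1 (-0.06 to 0.47), and neither passed (adjusted p = 0.998). Apoe had values of -0.37 ± 0.14 in Astro-D2KO mice and -0.30 ± 0.14 in control mice, which did not pass (adjusted p = 0.072 and 0.148). Mylip, a ubiquitin ligase that removes lipoprotein receptors and is induced by liver X receptors, had the smallest mean change of this role. It stood at 8.15, 7.84, 7.92 and 7.54 in Astro-D2KO SE arrays, against 7.84, 7.88, 8.03 and 7.99 in Astro-D2KO saline arrays. Control mice had Mylip at 8.02, 7.86, 7.82 and 7.94 in control SE arrays, against 7.83, 8.20, 8.01 and 7.77 in control saline arrays. The groups overlapped in both genotypes, with changes of -0.07 ± 0.12 and -0.04 ± 0.12 in Astro-D2KO and control mice.

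Of the 2 oxysterol enzymes, Ch25h rose in both genotypes and Cyp46a1 passed in neither. Ch25h, an enzyme known to be induced in activated microglia and macrophages, stood at 7.31, 7.24, 7.76 and 7.26 in Astro-D2KO SE arrays, against 5.50, 6.09, 5.49 and 6.41 in Astro-D2KO saline arrays. In control mice Ch25h was at 7.23, 7.29, 7.14 and 7.36 in control SE arrays, against 6.20, 5.46, 5.48 and 5.47 in control saline arrays. The saline arrays were spread over almost a unit, since control saline replicate 1 and Astro-D2KO saline replicates 2 and 4 stood above the others, and all SE arrays lay above them. Ch25h rose by 1.52 ± 0.20 (2.87-fold, adjusted p = 3.67e-05) in Astro-D2KO mice and by 1.60 ± 0.20 (3.03-fold, adjusted p = 1.94e-05) in control mice. Of the 8 saline arrays 5 read 5.46 to 5.50, below the array medians of 5.77 to 5.82; whether these values lie above background was not tested, so the folds hold for this scale only. A second, dimmer probe set of Ch25h, with a mean of 5.38 against 6.54, gave differences of 0.25 and 0.35, and the mean of both probe sets gave rises of 0.88 and 0.97, both of which passed. Of 5 microglia markers 0 rose and 2 fell in each genotype, where 12.6% of all genes fell in Astro-D2KO mice and 13.7% in control mice. The part of the microglia markers in the level of Ch25h was not tested. Cyp46a1, the neuronal hydroxylase that turns cholesterol into the form in which the brain sheds it, stood at 9.36, 9.28, 9.35 and 9.10 in Astro-D2KO SE arrays, against 9.45, 9.45, 9.43 and 9.34 in Astro-D2KO saline arrays. Its control levels were at 9.18, 9.55, 9.40 and 9.29 in control SE arrays, against 9.43, 9.58, 9.44 and 9.61 in control saline arrays. The groups overlapped, and the changes of -0.15 ± 0.087 in Astro-D2KO mice and -0.16 ± 0.087 in control mice did not pass (adjusted p = 0.281 and 0.222).

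**Figure D3:**
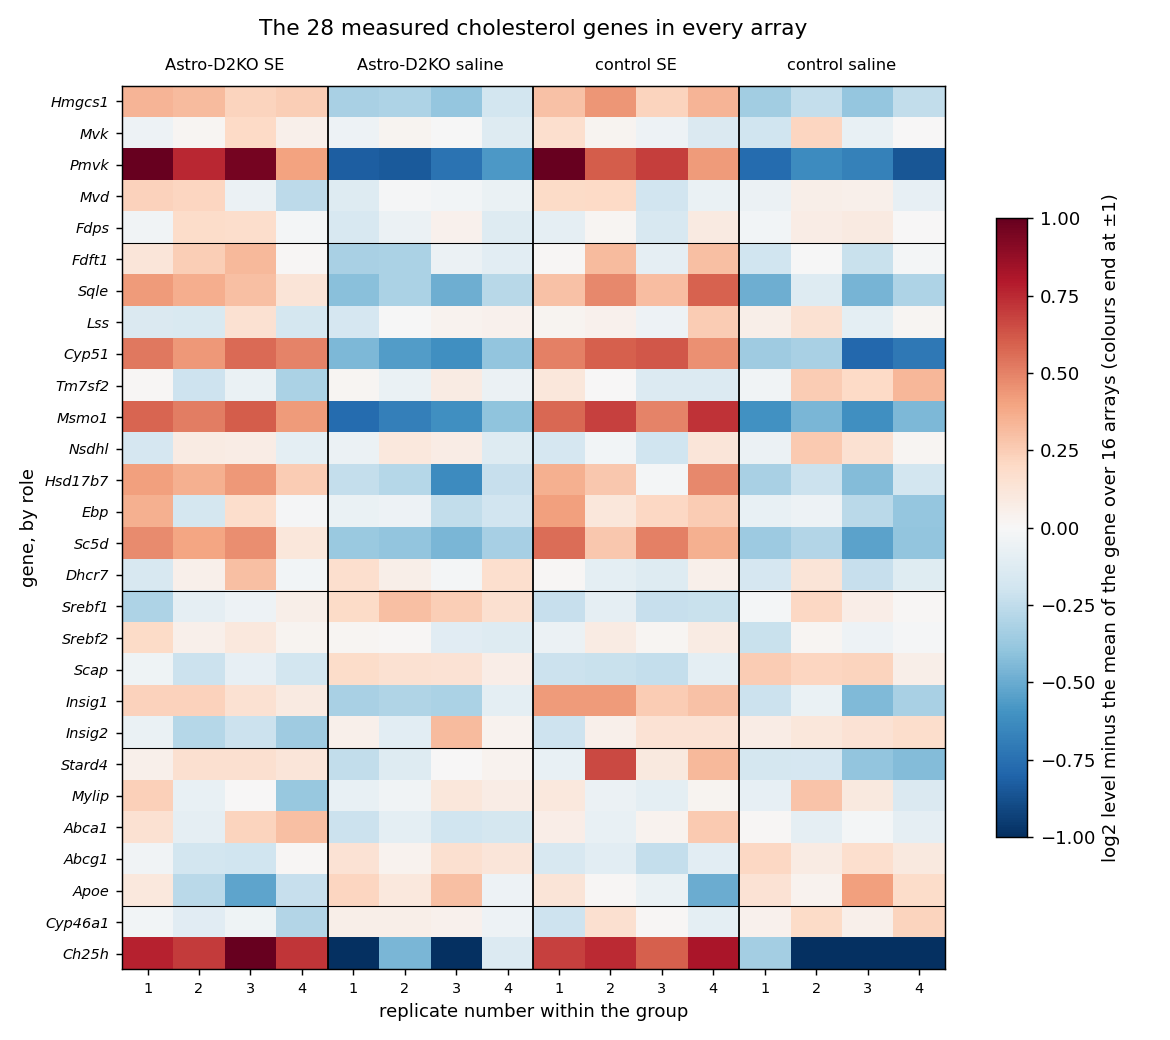
Log2 level minus the mean of the gene over 16 arrays (colour, red above and blue below the mean, ending at ±1) for the 28 measured genes (rows, by role) in every array (columns, by group and replicate number). The rows of Pmvk, Sqle, Cyp51, Msmo1, Sc5d, Insig1, Hmgcs1 and Ch25h are red in SE arrays and blue in saline arrays of both genotypes. The row of Hsd17b7 differs only in control SE replicate 3, which lies just below the gene mean (7.52 against 7.54). Rows such as Mvk, Lss and Dhcr7 are pale.

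Genotype made no difference that passed in any of the 28 genes. With saline 0 of 28 passed, 0 had an unadjusted p under 0.05 (3.99% of all genes did), and the differences between Astro-D2KO and control mice lay between -0.19 (Tm7sf2) and 0.22 (Ch25h). Arrays of Astro-D2KO saline mice lay wholly above those of control saline mice for 0 members (background 1.27%) and wholly below them for 1, Abca1, at 7.95, 8.07, 7.97 and 7.99 in Astro-D2KO mice, against 8.18, 8.08, 8.15 and 8.08 in control mice, where the background was 1.34%. The difference of Abca1 was -0.13 ± 0.089 (adjusted p = 0.999). After SE 0 of 28 passed and 1, Insig2, had an unadjusted p under 0.05 (6.12% of all genes did). Insig2 stood at 7.47, 7.25, 7.32 and 7.18 in Astro-D2KO SE arrays, against 7.33, 7.59, 7.68 and 7.68 in control SE arrays. All but 1 of the control SE arrays lay above the Astro-D2KO SE arrays, and the difference was -0.27 ± 0.099 (95% interval -0.47 to -0.06, unadjusted p = 0.0158, adjusted p = 0.725). After SE 0 members lay wholly above (background 1.53%) and 1 wholly below, Insig1, with 9.73, 9.73, 9.65 and 9.59 in Astro-D2KO mice, against 9.92, 9.92, 9.75 and 9.79 in control mice (background 1.4%), a difference of -0.17 ± 0.087 (adjusted p = 0.827). In the limma fit over all 22180 genes, 0 passed in either comparison of genotypes. Dio2, the targeted gene, did not pass either, so this fit can miss a genotype difference. Without the 2 arrays that stood apart in Dio2, 5 genes passed after SE and 1 with saline.

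The SE responses of the genotypes share no array and can be set side by side. Over the 28 genes the change in Astro-D2KO mice and that in control mice had a Pearson correlation of 0.969, against 0.867 over all 22180 genes, as a description across genes that are not independent. They had the same sign in 25 of 28 genes (89.3%), against 73.6% of all genes. The test of the difference between the responses passed in 0 of 28 genes, with 0 at an unadjusted p under 0.05 (4.65% of all genes). For Msmo1 the difference was -0.0031 with a 95% interval of -0.26 to 0.26, for Hmgcs1 -0.05 (-0.27 to 0.17), for Pmvk 0.11 (-0.28 to 0.51) and for Ch25h -0.08 (-0.67 to 0.51). The interval of Ch25h is thus wide enough to hold a difference of over 0.5 either way. Fdps had the largest positive difference, 0.22 (-0.02 to 0.46, unadjusted p = 0.0683).

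**Figure D4:**
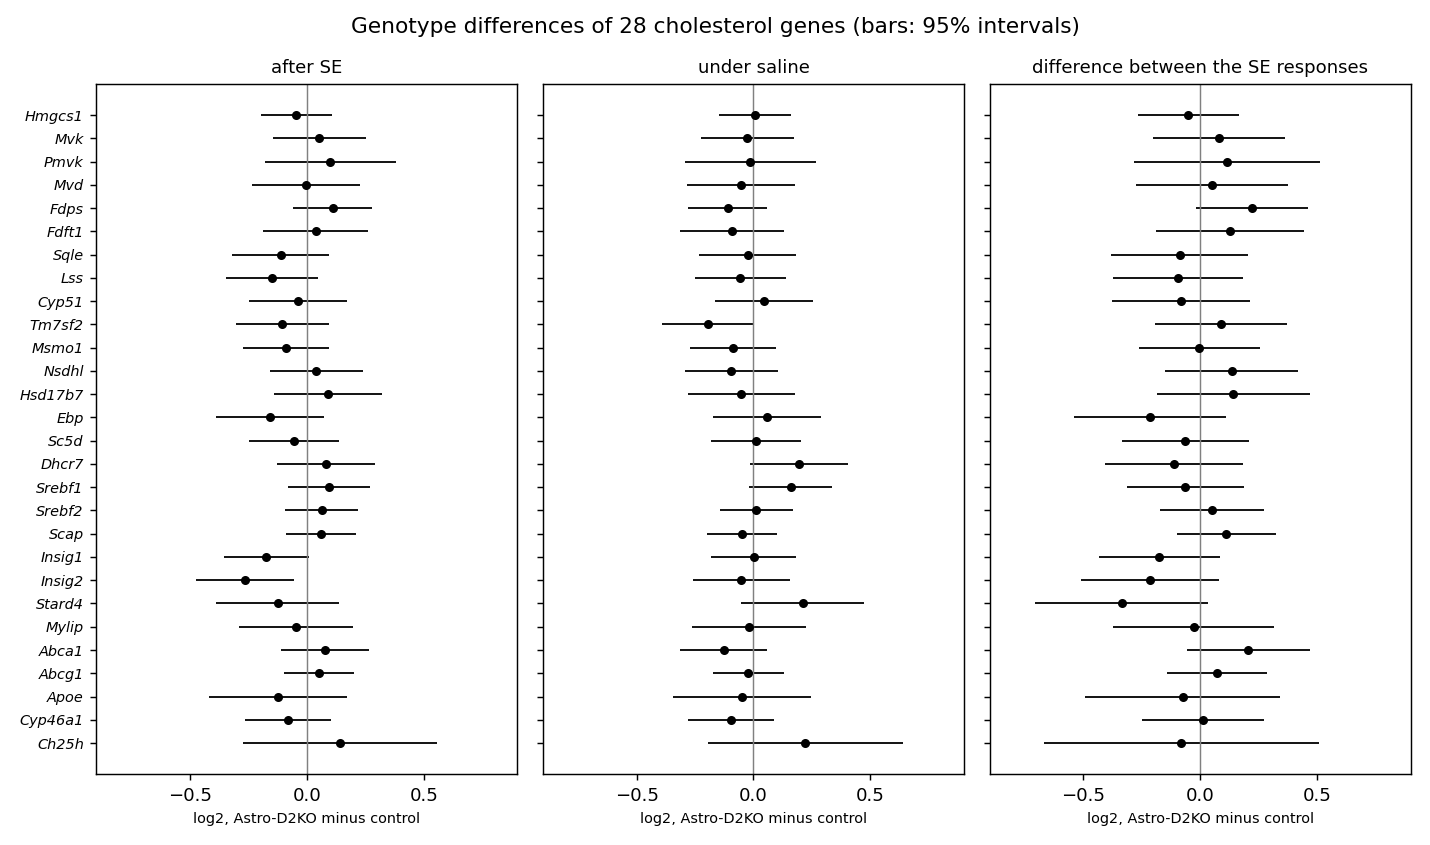
Difference between Astro-D2KO and control mice (horizontal axis, log2, with 95% intervals of the fit) for the 28 genes after SE (left), under saline (middle) and as the difference between the SE responses (right). The interval of Insig2 after SE, -0.47 to -0.06, does not include 0 and all the others do; after adjustment over all genes none passed.

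Other genes of the pathway fell more often than they rose after SE, as did genes as a whole. The list of these other genes was made with earlier results of these data known. Of 46 such genes on a list of isoprenoid, fatty acid and further cholesterol handling genes, 39 were measured. In each genotype 1 of the 39 rose after SE (2.56%) and 10 fell (25.6%). The background over all genes was 7.49% higher and 12.6% lower in Astro-D2KO mice, and 8.42% higher and 13.7% lower in control mice. With genes below the median level left out, 1484 of 11090 rose and 2888 fell in Astro-D2KO mice. In control mice 1638 rose and 3170 fell. The share of falls among the 39 was thus near that of the brighter genes, though the 39 were not filtered by level. The medians of the 39 were -0.18 in Astro-D2KO mice and -0.09 in control mice. The 1 rise in each was of Elovl6, a fatty acid elongase driven by SREBP1, by 0.39 ± 0.11 in Astro-D2KO mice (adjusted p = 0.0216) and 0.49 ± 0.11 in control mice (adjusted p = 0.00444). In Astro-D2KO mice it did not pass without saline replicate 1 (0.37), without the array labelled Astro-D2KO SE replicate 1 (0.36), without SE replicate 2 (0.37) or 3 (0.36), or with quantile normalisation repeated (0.33). Of the 9 measured fatty acid genes, Fasn, fatty acid synthase, had values of -0.03 ± 0.08 and -0.09 ± 0.08.

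The falls included Mbtps1, a protease that releases SREBPs in the Golgi. Mbtps1 fell by 0.54 in Astro-D2KO mice and by 0.59 in control mice on the log2 scale (adjusted p = 0.00136 and 0.000605). Mbtps2, the other such protease, was lower by 0.41 and 0.28 and was named only after the values were seen. Erg28, a scaffold of sterol enzymes, fell by 0.43 and 0.47, and Abcg4, a sterol exporter of neurons, by 0.44 and 0.47, in the same order of genotypes. Of the 7 measured genes of the isoprenoid branch, 2 fell in Astro-D2KO mice (28.6%, background 12.6%) and 3 in control mice (42.9%, background 13.7%). Among them were Pdss2 and Coq2, which act in coenzyme Q synthesis: Pdss2 fell by 0.44 and 0.38, and Coq2 by 0.41 and 0.58. Cyp7b1, which breaks down oxysterols such as 25-hydroxycholesterol, fell by 0.68 in Astro-D2KO mice (adjusted p = 0.0103), and its change in control mice was -0.47 (adjusted p = 0.068). Acss2, an acetyl-CoA synthetase, fell by 0.43 in control mice (adjusted p = 0.0169), a call lost without the arrays labelled control SE replicate 3 (-0.38) or 4 (-0.30), or with only the 2 groups compared in the fit, and its change in Astro-D2KO mice was -0.20 (adjusted p = 0.286).

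Cell type markers that moved with SE or genotype are given beside these results, as means of log2 levels over each list. In bulk tissue, fewer cells of a type and less RNA per cell cannot be told apart. Over all genes 7.49% rose and 12.6% fell after SE in Astro-D2KO mice, and 8.42% rose and 13.7% fell in control mice. The 8 astrocyte markers, which include Aqp4, Gfap and Slc1a3, had array means of 9.07 to 9.13 in Astro-D2KO SE mice, against 8.88 to 9.16 with saline, and 8.98 to 9.09 in control SE mice, against 8.92 to 9.18 with saline. All these groups overlapped. Sox9 rose and Fgfr3 fell in both genotypes, and Slc1a2 fell in control mice. The 5 microglia markers were lower after SE, at 6.82 to 7.15 in Astro-D2KO mice, against 7.34 to 7.51 with saline, and 6.85 to 7.17 in control mice, against 7.28 to 7.48 with saline. P2ry12 fell the most of them (-1.14 and -1.02). The 5 markers of CA pyramidal cells lay at 7.99 to 8.22 in Astro-D2KO SE mice, against 8.21 to 8.49 with saline, and at 7.81 to 8.10 in control SE mice, against 8.35 to 8.62 with saline; 1 and 2 of them fell. The 4 dentate granule cell markers lay at 7.96 to 8.04 in Astro-D2KO SE mice, against 7.97 to 8.83 with saline, and at 7.49 to 8.24 in control SE mice, against 8.42 to 8.85 with saline; 2 of the 4 fell in each genotype. Of the 5 endothelial markers 3 rose and 1 fell in each genotype. The 5 measured oligodendrocyte markers, of a cell type rich in cholesterol, had array means of 8.74 to 9.21 in Astro-D2KO SE mice, against 9.16 to 9.35 with saline, and 9.02 to 9.59 in control SE mice, against 9.31 to 9.49 with saline. After SE 2 of the 5 fell in Astro-D2KO mice and 0 passed in control mice. Between Astro-D2KO and control mice 4 of the 5 had an unadjusted p under 0.05 after SE (6.12% of all genes did) and 0 passed. With saline the Astro-D2KO arrays of 3 of the 5 lay wholly below those of control mice (1.34% of all genes did). Of 5 neuron markers 1 rose and 1 fell in each genotype, and of 3 oligodendrocyte precursor markers 0 passed in Astro-D2KO mice and 1 fell in control mice. The choroid plexus list ranged from 6.28 to 9.22 over the arrays, with wide and overlapping ranges in all 4 groups. The part of these markers in the changes of the cholesterol genes was not tested.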

How the data were processed

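Total RNA from the hippocampus of 16 mice was hybridised to Affymetrix arrays. RMA produced the deposited log2 values, per the submitters' processing notes. No header states the base of the logarithm, which was inferred from the range of the values (up to 13.79) and from array medians of 5.77 to 5.82. Of 41345 probe sets 23521 had 1 gene symbol in the platform annotation, 1814 several and 16010 none; 23328 of the first matched RefSeq by Entrez identifier. For the 1082 genes with several probe sets the one with the highest mean was kept, which gave 22180 genes with no filter on level.

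A model with a mean for each group was fitted to all 16 arrays with limma 3.58.1 (R 4.3.3) and empirical Bayes defaults. Tests were two-sided and adjusted by Benjamini-Hochberg over all genes within a contrast. The fit was tested on simulated data. Arrays have no read depth, and 4 arrays per group limit the precision. No label says that replicates were processed apart, so p-values measure the spread between these arrays. Full values are given for the members that passed in both genotypes (up to 12) and for the member with the smallest mean change of each role; of other pathway genes, at most the 5 largest rises and falls per SE comparison were named, and Fasn, Mbtps2, and the other genotype's values were added after the values were seen. The members and lists were chosen with earlier results of these data known. Promoters are from RefSeq, GRCm38.p6.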

Additional observations from a re-analysis of the deposited data

Results flagged for a closer look

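Of 112 sets of 4 arrays (28 genes in 4 groups), 7 held an array whose gap to its nearest neighbour exceeded Dixon's critical value for 4 arrays, where chance gives about 1 in 20. Ch25h stood at 7.76 in Astro-D2KO SE replicate 3, against 7.24 to 7.31 in the other arrays of that group, and at 6.20 in control saline replicate 1, against 5.46 to 5.48. Hsd17b7 stood at 6.91 in Astro-D2KO saline replicate 3 (others 7.25 to 7.31), and Insig1 at 9.40 in Astro-D2KO saline replicate 4 (others 9.17 to 9.20). Lss stood at 7.13 in Astro-D2KO SE replicate 3 (others 6.80 to 6.83). Srebf1 stood at 6.92 in control SE replicate 2 (others 6.78 to 6.79), and Scap at 8.36 in the array labelled control SE replicate 4 (others 8.22 to 8.24).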

How the results depend on the processing

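Recomputing the fit in 26 other ways reversed none of the called values given for single genes (1001 of 1065 kept their call and 64 lost it). Many of these settings could not reverse a value. Leaving out an array of the other genotype, or altering only the threshold or the error estimate, leaves the change itself as it was. In Astro-D2KO mice 11 members rose, 10 to 11 when 1 array was left out at a time and 7 with a minimum change of 1.5-fold. The number that fell was 4, 2 to 5 when 1 array was left out, 2 with each array centred on its median, with quantile normalisation repeated or with only the groups compared in the fit, and 0 with the 1.5-fold minimum. The cause was not tested, except that the minimum itself removes small changes. In control mice 11 rose, 11 to 12 when 1 array was left out, and 3 fell, 2 to 4 when 1 array was left out and 0 with the 1.5-fold minimum. No member was called for genotype or for the difference between the SE responses in any setting run. No label says that replicate numbers pair the mice. Of 24 correlations between deviations of same-numbered arrays, 4 were over 0.1 and the highest was 0.338. Low correlations cannot exclude a pairing by litter or day. With the replicate number as a block 11 rose and 3 fell in each genotype; it ended the call of Abcg1 in Astro-D2KO mice (adjusted p = 0.0574). In 9 of 48 cases the best correlated array of another group had the same number. The alternatives for Dio2, chosen after seeing the data, left the difference between -1.46 and -1.28 under saline and between -1.86 and -1.23 after SE when 1 array was left out. Dim probe sets limit small changes. Other background corrections and slide or scan date as a block were not run, since scanner files were not used here.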
